A study of Mus musculus with 39 samples.

Results

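Interferon-stimulated genes are the genes that cells turn on when interferon binds its receptors. Here 39 of them, chosen by symbol (families Ifit, Oas, Gbp, Irf, Slfn, Trim and single genes), were followed in bulk RNA-seq of mouse hippocampus and basolateral amygdala (BLA). The choice was made with earlier results of these data known. The 39 are among the 50559 genes listed in the deposited table of each tissue, all 39 have a row in both tables, and all 39 passed the low-count filter in both, where 25791 hippocampal and 23168 BLA genes passed it.

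The mice were 9-month-old females. APP/Tau mice combine 2 transgenes: line J9, in which a platelet-derived growth factor promoter drives human APP (Swedish and Indiana mutations), and line PS19, in which the prion promoter drives human tau P301S; controls carry neither transgene. Mice of every group, controls included, also carry the CaMKIIα-Cre driver and RiboTag, on C57BL/6, and the libraries are the RiboTag input, that is, RNA of the cleared lysate, freed of mitochondria, before any pulldown. Trained mice heard a 30 s tone that ended with a 0.8 mA foot shock and were killed 1 h later, and naive mice were not conditioned. In the hippocampus there were 4 trained and 5 naive APP/Tau mice and 6 trained and 5 naive controls, and in the BLA 4 trained and 5 naive APP/Tau mice and 5 trained and 5 naive controls. Each library is labelled as a separate sample, and p-values rest on the spread between samples of a group.

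Interferons are secreted proteins that signal through paired receptor chains and the kinases Jak1 and Tyk2. Type I interferon assembles a complex with Stat2 and Irf9 that binds the interferon-stimulated response element (ISRE), whereas interferon gamma acts through the gamma-activated site (GAS). The induced genes encode sensors of foreign nucleic acid, enzymes and binding proteins that block viral replication, and regulators that feed back on the pathway. In the brain, microglia, the resident macrophages, are a well-known site of this response, and astrocytes, neurons and endothelial cells can mount it as well. In bulk tissue, fewer cells of a type and less RNA per cell cannot be told apart, and neither can more cells and more RNA per cell.

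Totals ran from 92.1 to 128 M counts (1 M is 1000000) per library in the hippocampus and from 50.3 to 74.3 M in the BLA. Levels below are CPM, the counts of a gene in every 1000000 counts of its library, with TMM-scaled library sizes. The 18S rRNA gene Rn18s-rs5 held 0.0477 to 5.18% of hippocampal counts, and the 3 hippocampal libraries above 3 times the median share were controls, as was the 1 such BLA library. Of the tissue markers, Dsp averaged 30.6 ± 13.5 CPM in APP/Tau and 46.4 ± 9.39 CPM in control hippocampus (SD, n = 9 and 11) against 0.247 and 0.350 CPM in the BLA. Cyp26b1 averaged 175 CPM in APP/Tau and 239 CPM in control BLA against 17.6 and 17.3 CPM in the hippocampus. Each is a single gene from a list of 6, and the summed lists overlapped between the tissues. The 6 hippocampal markers summed to between 464 and 642 CPM in control hippocampus and between 314 and 470 CPM in control BLA. The 6 BLA markers summed to between 462 and 1182 CPM in control BLA and between 590 and 717 CPM in control hippocampus. Summed markers of striatum and central amygdala varied between 882 and 5348 CPM over APP/Tau BLA libraries and between 503 and 4609 CPM over control BLA libraries. As a check of the hippocampal genotype labels, Prnp stood between 1588 and 2231 CPM in APP/Tau libraries and between 707 and 964 CPM in controls, with no overlap. Values of App and Mapt, and of Prnp in the BLA, are not reported here.

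The promoter windows were searched for the ISRE and the GAS. The 39 were chosen as interferon-stimulated genes, and interferon acts through these elements. A share above that of all genes is therefore no independent result. RefSeq windows of build GRCm38.p6, from 250 bases before to 50 bases after the start, were at hand for 31 of the 39. The ISRE core GAAANNGAAA, searched on both strands, occurred in the windows of 15 of these 31 (48.4%), against 1079 of 27025 genes with a window (3.99%). The GAS TTCNNNGAA, which reads the same on both strands, occurred in 9 of 31 (29.0%), against 9.55% of all genes. Bst2, Gbp7 and Oas1a have both. A match is a description of letters and not a site shown to be bound, and a window without one says nothing about other parts of the gene. The windows below, 5′ to 3′ along the gene, are those of members whose values follow in detail or that differ most in motif content; capitals mark the motif matches.

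Isg15, a ubiquitin-like modifier, has 3 overlapping ISRE cores in a window at chr4:156200769-156201068 on the minus strand.
Isg15: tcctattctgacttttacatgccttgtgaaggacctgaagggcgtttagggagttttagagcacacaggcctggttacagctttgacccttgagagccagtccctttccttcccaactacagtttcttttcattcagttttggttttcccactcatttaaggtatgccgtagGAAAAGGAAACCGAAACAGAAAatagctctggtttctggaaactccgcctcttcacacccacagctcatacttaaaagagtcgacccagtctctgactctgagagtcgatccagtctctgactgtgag

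Ifit3 and Ifit3b, neighbouring copies whose proteins belong to an RNA-binding family, have 2 ISRE cores each, at chr19:34583279-34583578 and chr19:34607707-34608006, both on the plus strand. The capital letters show the reverse complement of the core, TTTCNNTTTC.
Ifit3: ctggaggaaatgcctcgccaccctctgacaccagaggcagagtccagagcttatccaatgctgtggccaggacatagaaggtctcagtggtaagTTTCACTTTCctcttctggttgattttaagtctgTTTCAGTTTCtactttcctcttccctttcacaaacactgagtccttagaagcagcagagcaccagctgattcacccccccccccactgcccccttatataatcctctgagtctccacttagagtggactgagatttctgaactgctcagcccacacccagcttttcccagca
Ifit3b: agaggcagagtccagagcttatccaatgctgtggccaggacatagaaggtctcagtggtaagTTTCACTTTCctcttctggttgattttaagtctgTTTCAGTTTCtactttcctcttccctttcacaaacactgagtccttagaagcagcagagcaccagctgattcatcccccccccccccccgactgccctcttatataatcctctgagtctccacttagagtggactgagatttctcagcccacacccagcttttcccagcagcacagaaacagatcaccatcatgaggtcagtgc

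Bst2, which tethers virus particles to the cell surface, has a GAS that runs into 2 overlapping ISRE cores, at chr8:71537423-71537722 on the minus strand.
Bst2: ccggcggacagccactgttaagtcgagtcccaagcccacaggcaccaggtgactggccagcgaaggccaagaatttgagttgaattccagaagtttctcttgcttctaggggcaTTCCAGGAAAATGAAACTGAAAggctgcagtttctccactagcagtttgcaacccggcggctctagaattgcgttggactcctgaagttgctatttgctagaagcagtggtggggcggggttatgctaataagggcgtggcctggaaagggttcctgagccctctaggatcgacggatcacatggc

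Stat2, a subunit of the complex that binds the ISRE, has 1 ISRE core far from its start, at chr10:128270248-128270547 on the plus strand.
Stat2: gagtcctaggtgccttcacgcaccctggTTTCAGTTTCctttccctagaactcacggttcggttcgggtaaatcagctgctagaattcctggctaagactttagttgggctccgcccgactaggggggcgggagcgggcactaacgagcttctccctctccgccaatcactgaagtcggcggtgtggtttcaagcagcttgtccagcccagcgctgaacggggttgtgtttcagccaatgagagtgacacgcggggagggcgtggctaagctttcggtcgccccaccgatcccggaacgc

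Irf8, a transcription factor of microglia and other myeloid cells, has 2 GAS matches and no ISRE core in the window at chr8:120736108-120736407 on the plus strand.
Irf8: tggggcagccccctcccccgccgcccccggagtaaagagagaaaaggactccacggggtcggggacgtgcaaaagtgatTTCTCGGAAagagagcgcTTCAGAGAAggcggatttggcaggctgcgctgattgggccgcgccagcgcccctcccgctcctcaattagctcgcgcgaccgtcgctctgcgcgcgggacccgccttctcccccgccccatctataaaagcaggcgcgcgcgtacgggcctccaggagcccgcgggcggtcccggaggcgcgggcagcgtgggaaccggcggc

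**Figure D1:**
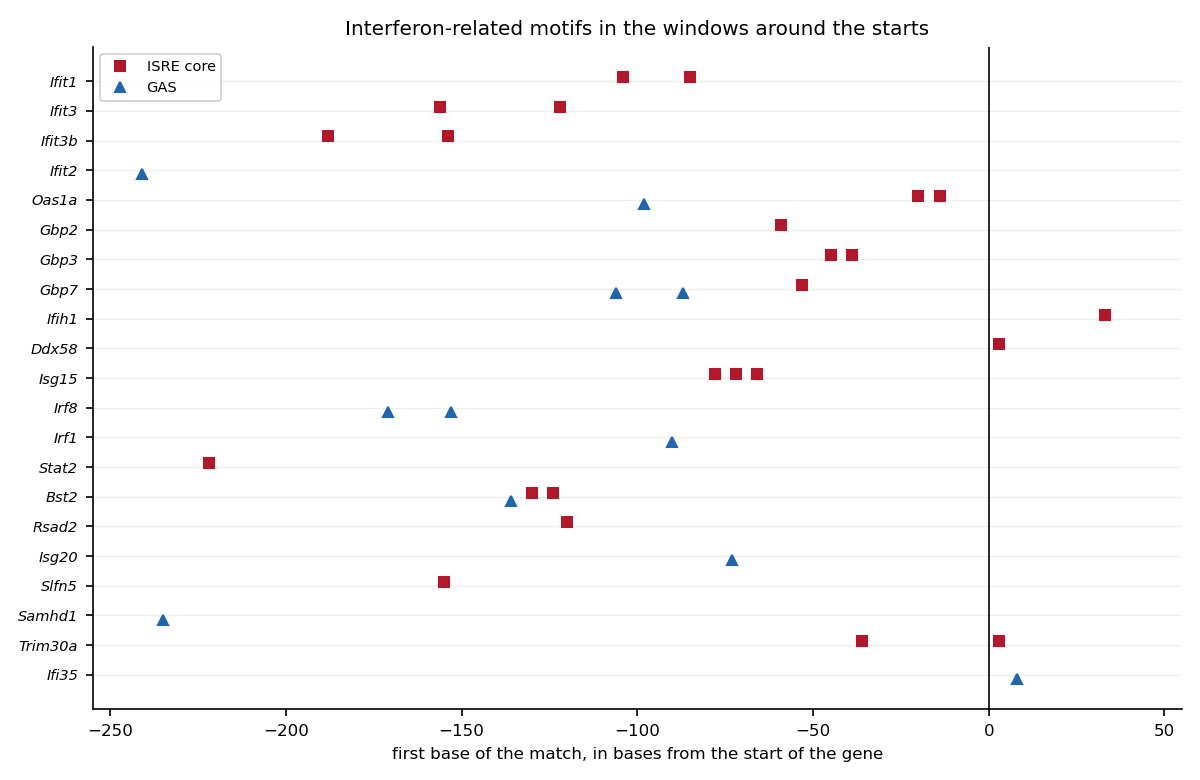
First base of each ISRE core (squares) and GAS (triangles) match, in bases from the start of the gene (x axis, vertical line at the start), for the members that have one (y axis). ISRE cores occurred in 15 of the 31 members with a window and GAS matches in 9.

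In the hippocampus, most of the interferon-stimulated genes were higher in APP/Tau mice than in controls. Averaged over naive and trained mice, 29 of the 39 rose and 0 fell (edgeR quasi-likelihood F test, Benjamini-Hochberg adjusted p below 0.05 over all genes tested). Over all genes tested, 7.27% rose and 3.8% fell. The median log2 fold change of the 39 was 0.70, against -0.001 over all genes, and the estimates of all 39 lay above 0, from 0.02 for Stat2 to 1.70 for Irf8. Microglial markers moved with the set: 8 of 10 rose, their median log2 fold change was 0.80, and their summed level stood between 411 and 1161 CPM in APP/Tau libraries and between 339 and 402 CPM in controls. The part of microglia in the results below was not tested. Tmem119, a marker of homeostatic microglia, did not follow the others (log2 fold change -0.04 ± 0.09 SE, adjusted p = 0.818, edgeR).

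**Figure D2:**
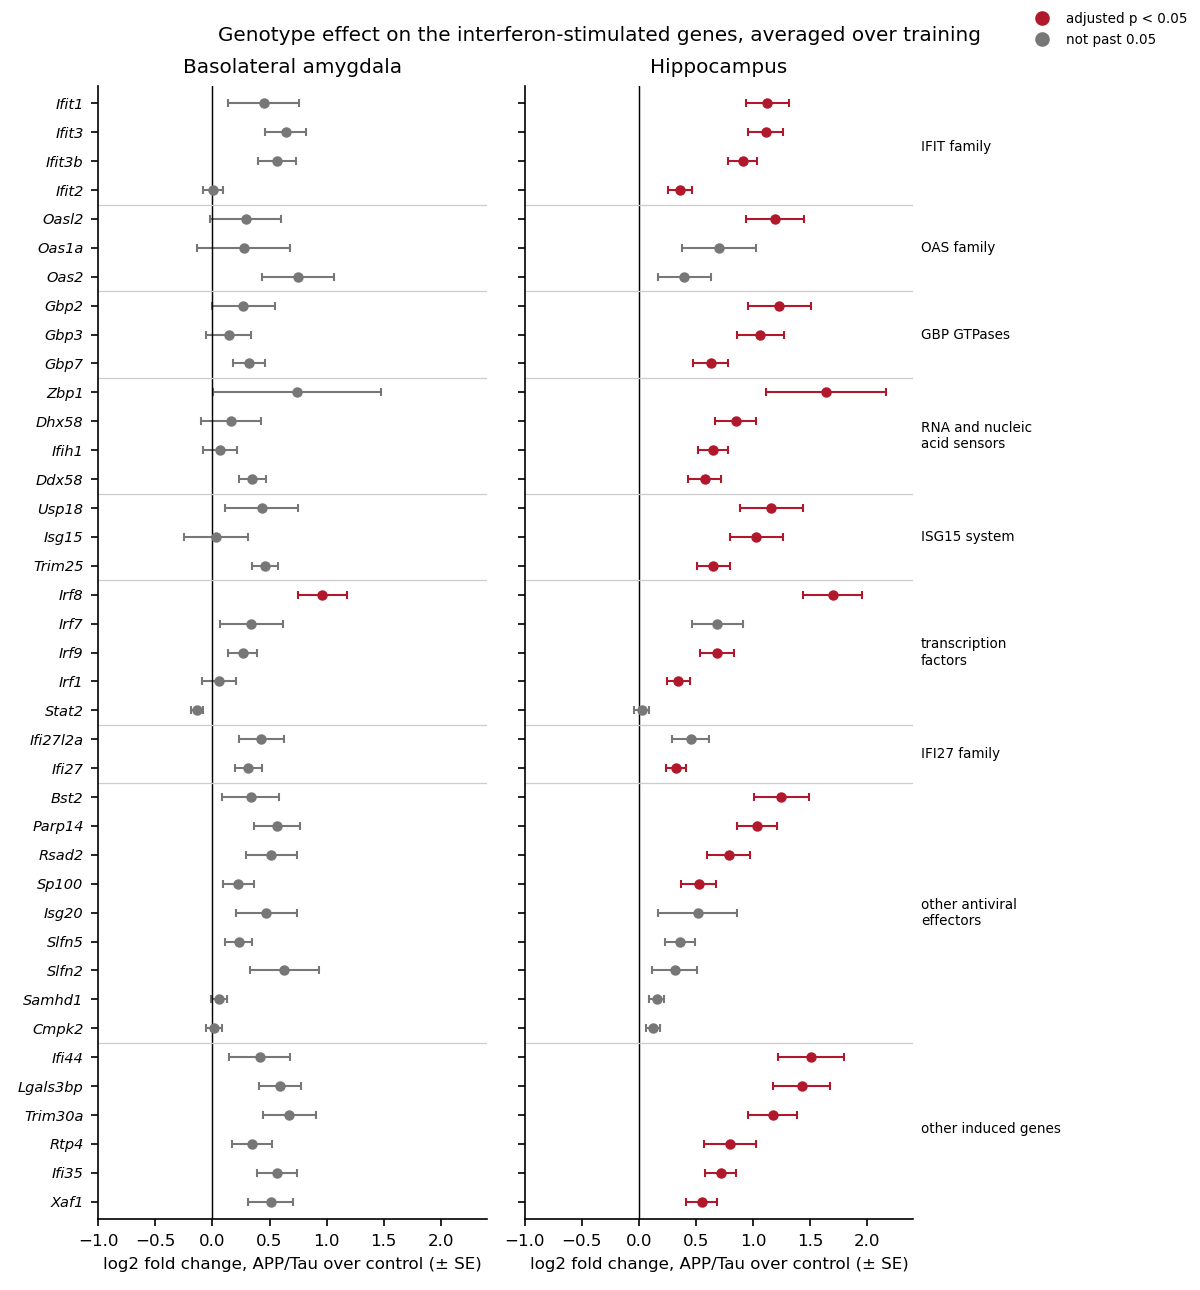
Log2 fold change of APP/Tau over control, averaged over training, for the 39 genes (rows, grouped by role) in the BLA (left) and the hippocampus (right). Points are edgeR estimates, bars are ± 1 SE, and red marks adjusted p below 0.05: 1 gene in the BLA and 29 in the hippocampus.

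Among the IFIT genes, whose proteins bind foreign RNA or one another, 4 of 4 rose in the hippocampus. Ifit3 measured 8.42, 6.04, 7.44 and 7.14 CPM in trained APP/Tau mice and 7.30, 5.76, 5.89, 4.32 and 12.8 CPM in naive APP/Tau mice. Trained controls ran from 2.55 to 4.19 CPM (median 3.08, n = 6), and naive controls measured 3.33, 3.94, 3.77, 2.96 and 3.37 CPM. Every APP/Tau library lay above every control, and the log2 fold change was 1.11 ± 0.15 (SE; edgeR, adjusted p = 0.000312). Ifit3b measured 4.40, 3.63, 4.40 and 3.53 CPM in trained and 3.65, 3.22, 2.69, 2.48 and 6.05 CPM in naive APP/Tau mice. Its trained controls ran from 2.00 to 2.13 CPM (median 2.08), and its naive controls measured 1.76, 1.67, 2.04, 2.10 and 2.34 CPM. Again no control reached the lowest APP/Tau library (log2 fold change 0.91 ± 0.13; edgeR, adjusted p = 0.00042). Of the 50-base windows of Ifit3 transcripts, 51.2% also occur in Ifit3b transcripts, so counts of this pair can be split or shared in counting, and their 2 results are not independent.

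Ifit1 measured 5.99, 3.74, 5.03 and 4.57 CPM in trained APP/Tau mice and 4.00, 3.26, 3.92, 1.83 and 8.20 CPM in naive APP/Tau mice. Ifit1 in trained controls ran from 1.57 to 2.62 CPM (median 2.03), and naive controls measured 1.80, 2.15, 1.78, 2.00 and 2.51 CPM. The overlap came from a single library, replicate 4 of the naive APP/Tau group, and the log2 fold change was 1.12 ± 0.19 (adjusted p = 0.00111, edgeR). Ifit2 had the smallest difference of the family, 0.36 ± 0.11 (adjusted p = 0.0364, edgeR). Its call held in 10 of 20 fits that left out 1 library and in 5 of 7 other settings.

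**Figure D3:**
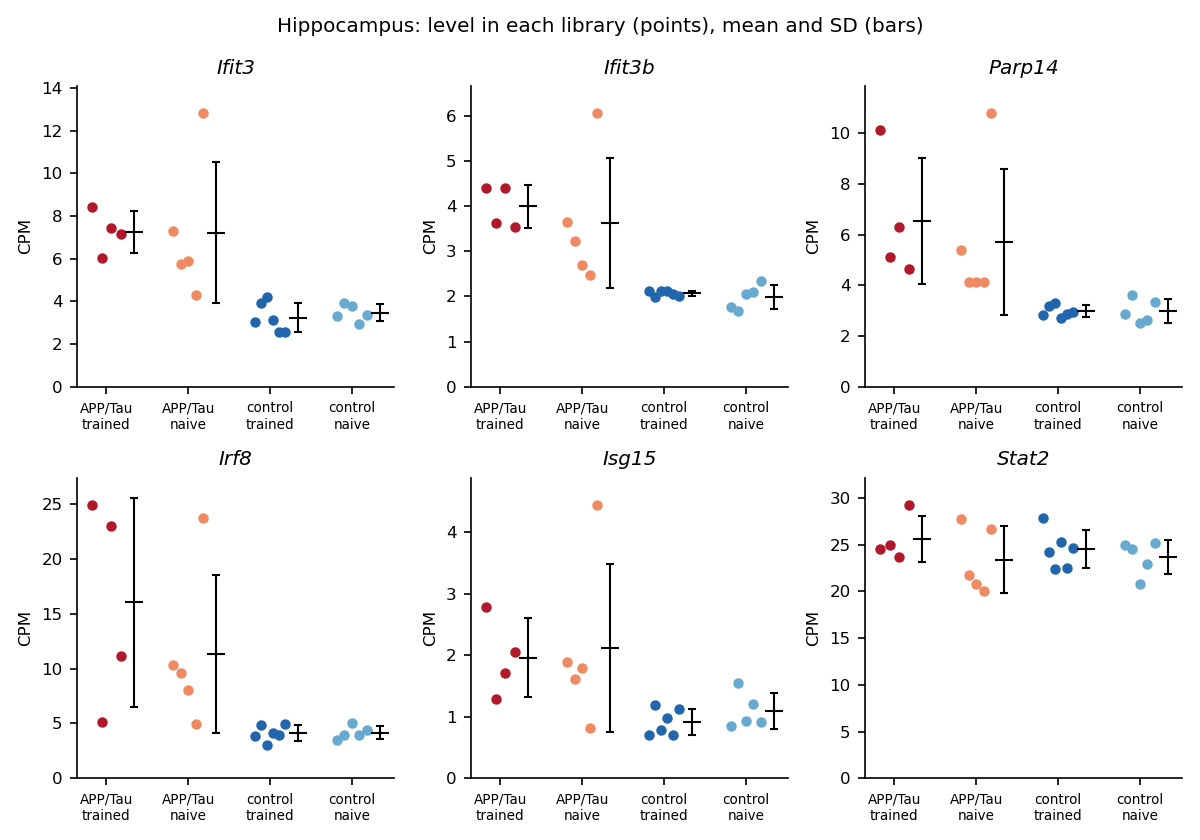
Level in CPM (y axis, from 0) in every hippocampal library (points) of the 4 groups (x axis), with group mean and SD (bars), for 6 members. No control library reaches the lowest APP/Tau library for Ifit3, Ifit3b and Parp14, whereas Stat2 covers the same range in all groups.

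Of the 5 transcription factors, 3 rose, Irf8, Irf9 and Irf1, and Irf7 and Stat2 did not pass. Irf8 measured 24.9, 5.09, 23.0 and 11.1 CPM in trained APP/Tau mice and 10.3, 9.56, 8.05, 4.98 and 23.7 CPM in naive APP/Tau mice. Trained controls ran from 3.06 to 4.98 CPM (median 4.01), and naive controls measured 3.48, 3.96, 5.06, 3.94 and 4.39 CPM. The APP/Tau libraries spread more widely than the controls, the lowest of them lay within the control range, and the log2 fold change, 1.70 ± 0.26, was the largest of the 39 (adjusted p = 0.000576, edgeR). Irf9, the DNA-binding subunit of the type I complex, measured 13.7, 9.27, 12.3 and 11.2 CPM in trained and 10.5, 8.39, 8.28, 5.83 and 18.3 CPM in naive APP/Tau mice. Its trained controls ran from 5.42 to 7.89 CPM (median 6.69), and its naive controls measured 5.97, 8.05, 5.68, 7.36 and 7.30 CPM. All APP/Tau libraries but 1 exceeded the highest control (log2 fold change 0.68 ± 0.15; edgeR, adjusted p = 0.00884).

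Stat2, the partner of Irf9, measured 24.6, 24.9, 23.7 and 29.2 CPM in trained and 27.8, 21.7, 20.8, 19.996 and 26.6 CPM in naive APP/Tau mice. Stat2 in trained controls ran from 22.4 to 27.9 CPM (median 24.4), and naive controls measured 25.0, 24.5, 20.8, 22.9 and 25.2 CPM. The groups covered the same range, with a log2 fold change of 0.02 ± 0.07 (adjusted p = 0.851, edgeR) and a 95% interval from -0.11 to 0.16. The estimate turned below 0, to -0.01 at the lowest, without replicate 1 or 5 of the naive or replicate 4 of the trained APP/Tau group. Irf7, which amplifies the transcription of interferon alpha genes, measured 3.77, 2.36, 2.32 and 2.68 CPM in trained and 2.92, 2.20, 2.07, 1.07 and 6.15 CPM in naive APP/Tau mice. Its trained controls ran from 1.29 to 2.16 CPM (median 1.59), and its naive controls measured 1.70, 2.01, 1.62, 1.42 and 2.60 CPM. Groups overlapped at both ends, and the difference did not pass the threshold (log2 fold change 0.69 ± 0.22; edgeR, adjusted p = 0.0512). Irf1, a target of interferon gamma, differed by 0.34 ± 0.10 (adjusted p = 0.0367, edgeR).

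The ISG15 system comprises the modifier Isg15, the protease Usp18, which removes it and also restrains the interferon receptor, and the ubiquitin ligase Trim25, which activates RIG-I. All 3 rose in the hippocampus. Isg15 measured 2.79, 1.28, 1.71 and 2.06 CPM in trained and 1.90, 1.62, 1.80, 0.823 and 4.44 CPM in naive APP/Tau mice. Its trained controls ran from 0.709 to 1.20 CPM (median 0.879), and its naive controls measured 0.844, 1.55, 0.930, 1.20 and 0.915 CPM. Of the 9 APP/Tau libraries, 7 lay above the highest control, and the log2 fold change was 1.03 ± 0.23 (adjusted p = 0.00953, edgeR). Usp18 differed by 1.16 ± 0.28 and Trim25 by 0.65 ± 0.14.

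All 4 sensors of nucleic acid rose: Ifih1 (MDA5) by 0.65 ± 0.13, Ddx58 (RIG-I) by 0.58 ± 0.14, their regulator Dhx58 (LGP2) by 0.85 ± 0.18 and Zbp1, which recognises Z-form nucleic acid, by 1.64 ± 0.52 on the log2 scale. Zbp1 is the least abundant member, with 587 counts over 20 hippocampal libraries and an adjusted p of 0.0491 (edgeR). It passed in 6 of 20 fits that left out 1 library and in 2 of 6 other settings. The 3 guanylate-binding GTPases, which act on membranes around pathogens, also rose, with log2 fold changes of 1.23 ± 0.28 for Gbp2, 1.06 ± 0.20 for Gbp3 and 0.63 ± 0.15 for Gbp7. Of the OAS genes, whose products sense double-stranded RNA, Oasl2 rose by 1.19 ± 0.26, whereas Oas1a (0.70 ± 0.33) and Oas2 (0.40 ± 0.23) did not pass the threshold. Oas1a shares 57.6% of its 50-base windows with Oas1g, so its counts are uncertain. Gbp7, Rtp4, Slfn5, Ifi35 and Ifit1 share between 7.13 and 12.7% of theirs with other genes.

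Among 9 other antiviral effectors, 4 rose, and Parp14 had the smallest p. Parp14, an ADP-ribosyltransferase, measured 10.1, 5.13, 6.31 and 4.63 CPM in trained and 5.41, 4.14, 4.13, 4.15 and 10.8 CPM in naive APP/Tau mice. Its trained controls ran from 2.70 to 3.32 CPM (median 2.91), and its naive controls measured 2.88, 3.63, 2.52, 2.65 and 3.33 CPM. No control reached the lowest APP/Tau library (log2 fold change 1.03 ± 0.17; edgeR, adjusted p = 0.00111). With Ifit3 and Ifit3b this makes 3 of the 39 whose groups did not overlap, against 0.403% of all genes tested. Bst2 rose by 1.25 ± 0.24, the radical enzyme Rsad2 (viperin) by 0.79 ± 0.19 and the nuclear body protein Sp100 by 0.52 ± 0.16. The other 5 did not pass: the exonuclease Isg20 (0.51 ± 0.35), the Schlafen genes Slfn5 (0.36 ± 0.13) and Slfn2 (0.31 ± 0.20), the nucleotide hydrolase Samhd1 (0.16 ± 0.07) and the mitochondrial nucleotide kinase Cmpk2 (0.12 ± 0.06). Rsad2 and Cmpk2 are neighbours on the chromosome; whether their effects differ was not tested.

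The remaining induced genes rose, 6 of 6. Lgals3bp, a secreted glycoprotein that binds galectins, measured 55.1, 15.5, 39.9 and 26.7 CPM in trained and 23.3, 19.9, 19.9, 11.8 and 61.0 CPM in naive APP/Tau mice. Its trained controls ran from 7.43 to 12.9 CPM (median 10.2), and its naive controls measured 8.35, 15.6, 12.3, 10.9 and 16.6 CPM. The highest APP/Tau libraries stood well above the highest control, and the lowest lay within the control range (log2 fold change 1.42 ± 0.25; edgeR, adjusted p = 0.00157). Ifi44 differed by 1.51 ± 0.29, Trim30a, a brake on Toll-like receptor signalling, by 1.17 ± 0.21, Rtp4, a receptor chaperone, by 0.80 ± 0.23, Ifi35 by 0.72 ± 0.14 and the pro-apoptotic Xaf1 by 0.55 ± 0.14. Of the small membrane proteins of the Ifi27 family, Ifi27 rose by 0.32 ± 0.09, and Ifi27l2a (0.45 ± 0.16; edgeR, adjusted p = 0.0726) did not pass.

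The APP/Tau libraries differed more from one another than the controls did, and the same libraries were highest or lowest for most members. Replicate 5 of the naive APP/Tau group was the highest of the 20 hippocampal libraries for 30 of the 39 genes, and replicate 1 of the trained APP/Tau group for 7. Replicate 4 of the naive APP/Tau group was the lowest APP/Tau library for 32. Microglial markers summed to 1161 CPM in the first of these libraries and 868 CPM in the second, the highest of the 20, and to 445 CPM in the third, which lay above the highest control at 402 CPM. Without replicate 5 of the naive group 25 of the 39 rose, without replicate 1 of the trained group 20, and without replicate 4 of the naive group 33. The shares of all genes called in these fits are not reported here. Without the 3 control libraries rich in 18S rRNA, 18 of the 39 rose, and 1126 genes were called over the whole table, against 2854 with all libraries. Of the 29 genes, 20 passed in each fit that left out 1 library. Those that did not were Ddx58, Ifi27, Ifit2, Irf1, Rsad2, Rtp4, Sp100, Xaf1 and Zbp1.

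**Figure D4:**
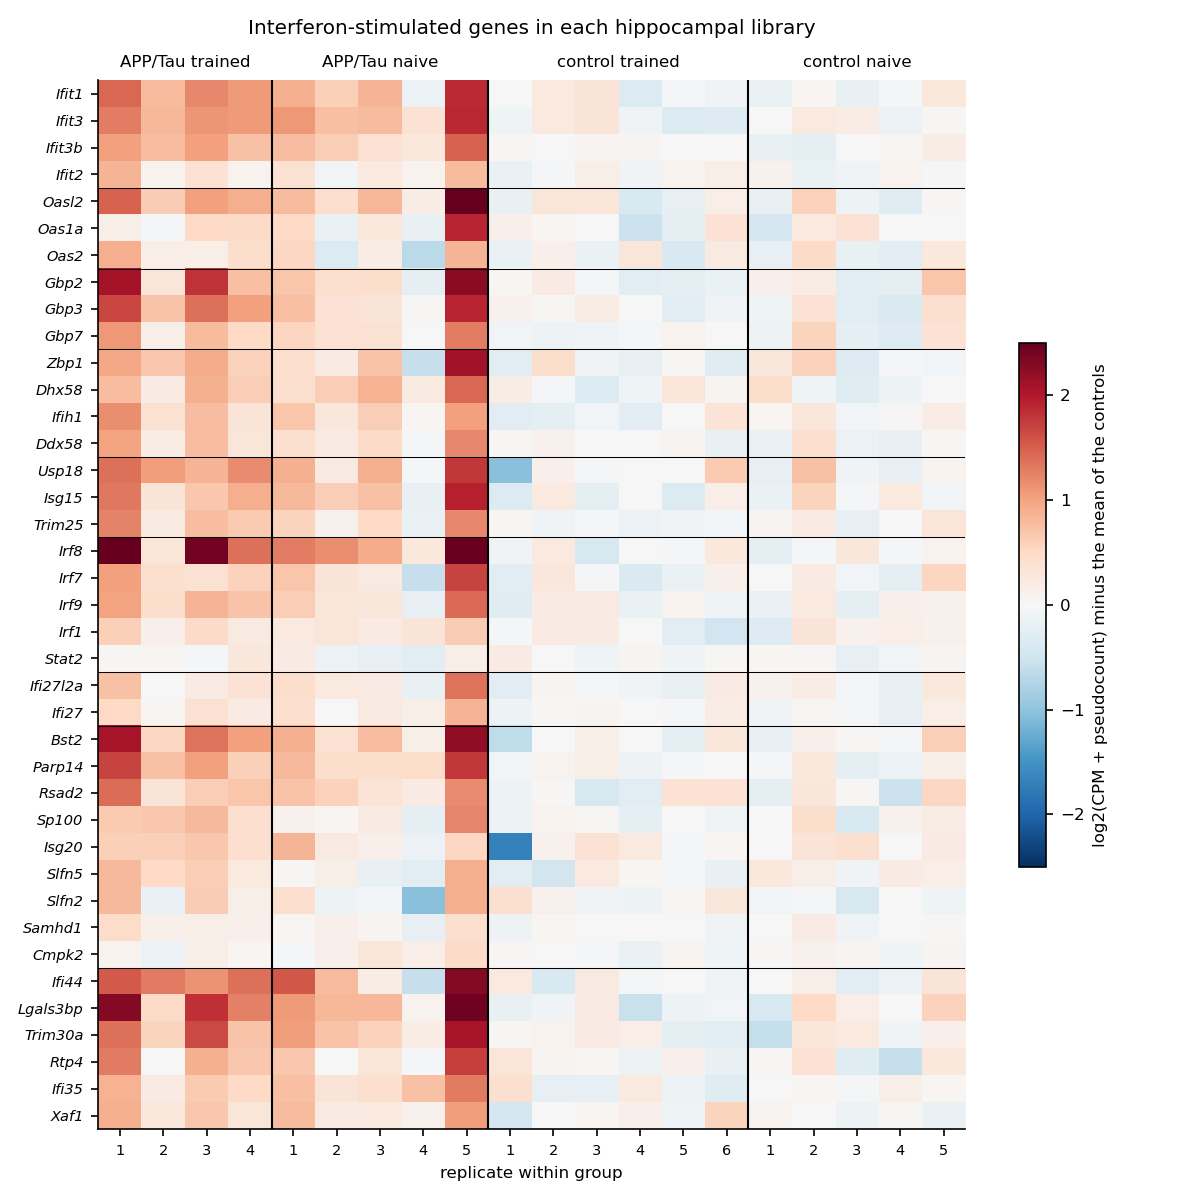
Level of each of the 39 genes (rows, grouped by role) in each hippocampal library (columns), as log2(CPM + 0.25) minus the mean of the control libraries; red is above and blue below that mean, and values past the ends of the scale take the end colours. Replicate 5 of the naive and replicate 1 of the trained APP/Tau group are darkest over most rows, and replicate 4 of the naive APP/Tau group is near the controls.

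Naive and trained mice were then taken apart to ask whether the genotype effect was there without conditioning. Estimates lay above 0 in both states for 38 of the 39. In trained mice 13 of the 39 rose in APP/Tau (all genes: 2.65%), among them Irf8 (1.95 ± 0.36), Lgals3bp (1.76 ± 0.35), Gbp2 (1.56 ± 0.39), Bst2 (1.48 ± 0.34) and Gbp3 (1.29 ± 0.29). In naive mice 1 rose, Ifit3 (1.06 ± 0.22; edgeR, adjusted p = 0.04998; all genes: 0.109%), with Ifit3b next (0.87 ± 0.18; adjusted p = 0.0507). The median log2 fold change of the 39 was 0.81 in trained and 0.67 in naive mice, and 32 and 28 of the 39 had unadjusted p below 0.05. The 2 counts are therefore no sign of a difference between the states, which the interaction tests directly: 0 of 39 passed, as did 0 of all genes (edgeR; 1 of 39 with unadjusted p below 0.05, Slfn5, and 0 called by DESeq2 or limma-voom). Of the 39 interaction estimates, 31 lay above 0, with a median of 0.16 on the log2 scale against -0.007 over all genes, of which 48.5% lay above 0. The count in trained mice rests on few libraries. It was 0 without replicate 1 and 1 without replicate 3 of the trained APP/Tau group, 23 without its replicate 2 and 25 without replicate 5 of the naive APP/Tau group. It was 7, 8, 7 and 8 without replicates 1, 2, 4 and 5 of the trained controls, and 0 without the libraries rich in 18S rRNA. The shares of all genes called in these fits are not reported here. The count in naive mice was 0 to 5 when 1 library was left out, the highest without replicate 4 of the naive APP/Tau group.

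Fear conditioning itself, 1 h before, left no called change. In APP/Tau hippocampus 0 of 39 passed, with 0 at unadjusted p below 0.05, and in control hippocampus likewise 0 and 0 (edgeR; all genes: 0% called in both; DESeq2 and limma-voom called 0 of the 39). The median log2 difference of trained over naive was 0.13 in APP/Tau mice and -0.07 in controls. The estimates farthest from 0 were -0.59 ± 0.48 for Oas1a in APP/Tau mice and -0.45 ± 0.73 for Zbp1 in controls, and neither passed. In the BLA, 0 of 39 passed in APP/Tau mice (3 at unadjusted p below 0.05: Ifi27, Slfn5 and Gbp2) and 0 in controls (0 at unadjusted p below 0.05), again with 0% of all genes called and 0 of the 39 called by DESeq2 or limma-voom. Ifi27 had the smallest p, with a log2 difference of 0.62 ± 0.17 in APP/Tau BLA (adjusted p = 0.708, edgeR).

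In the BLA, 1 of the 39 rose (all genes: 0.997%) and 0 fell (all genes: 0.181%). Estimates lay above 0 for 38 of the 39, with a median log2 fold change of 0.35 against 0.007 over all genes, and 16 had unadjusted p below 0.05. For 0 of the 39 did every APP/Tau library lie above every control (all genes: 0.0388%). Irf8 was the gene that passed. Its levels were 18.02, 6.32, 14.1 and 5.73 CPM in trained and 5.72, 10.0, 8.04, 4.54 and 12.6 CPM in naive APP/Tau mice. Irf8 in trained controls measured 4.50, 6.80, 5.71, 4.13 and 4.99 CPM, and in naive controls 4.56, 3.59, 4.70, 5.16 and 4.77 CPM. Of the 9 APP/Tau libraries, 5 lay above the highest control, and the log2 fold change was 0.96 ± 0.21 (adjusted p = 0.034, edgeR). The call did not hold in 14 of 19 fits that left out 1 library and in 4 of 8 other settings, among them a striatal marker covariate, limma-voom and the fit without the library rich in 18S rRNA. Microglial markers moved here too: 3 of 10 rose, among them Csf1r (0.51) and Cx3cr1 (0.46), and their sum stood between 372 and 679 CPM in APP/Tau and between 318 and 402 CPM in control BLA. Of 6 oligodendrocyte markers 1 rose, Cnp (0.61 ± 0.14), their median log2 fold change was 0.59, and 6 had unadjusted p below 0.05; their sum stood between 2546 and 5543 CPM in APP/Tau and between 1973 and 4080 CPM in control BLA. None of 12 striatal and central amygdala markers passed (edgeR; median 0.65; 0 at unadjusted p below 0.05), nor did any of 6 BLA markers (median -0.53; 2 at unadjusted p below 0.05), whose sum stood between 407 and 921 CPM in APP/Tau and between 462 and 1182 CPM in control BLA. With the striatal markers as a covariate 0 of the 39 passed. The part of the other markers in the BLA results was not tested.

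**Figure D5:**
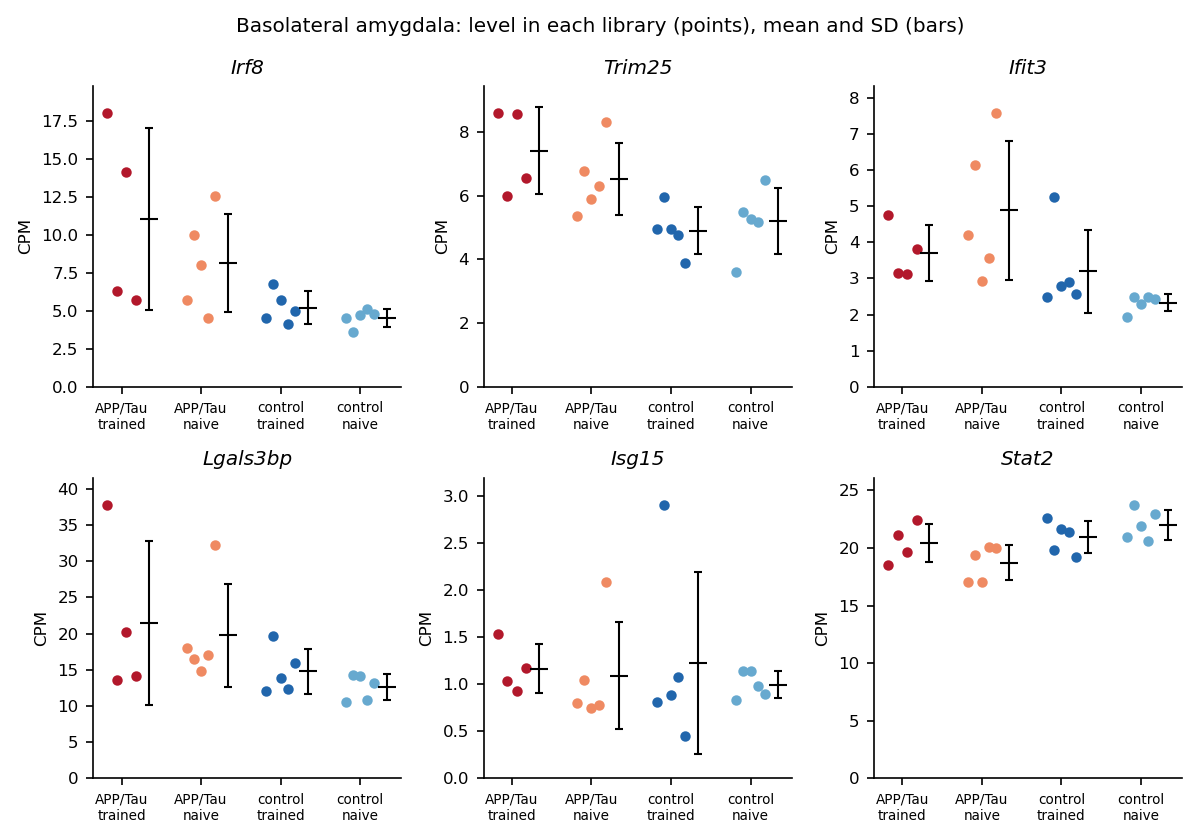
Level in CPM (y axis, from 0) in every BLA library (points) of the 4 groups (x axis), with group mean and SD (bars), for 6 members. Irf8 exceeds the controls in part of the APP/Tau libraries, and replicate 2 of the trained controls holds the highest Isg15 level of the 19 libraries, 2.91 CPM.

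Next in order of p came Trim25, Ifit3, Ifit3b, Ifi35 and Lgals3bp, none of which passed. Trim25 measured 8.59, 5.99, 8.56 and 6.55 CPM in trained and 5.36, 6.77, 5.88, 6.32 and 8.33 CPM in naive APP/Tau BLA. Its controls measured 4.95, 5.95, 4.96, 4.78 and 3.88 CPM when trained and 3.61, 5.49, 5.26, 5.19 and 6.49 CPM when naive. The groups overlapped, with 5 APP/Tau libraries above the highest control (log2 fold change 0.46 ± 0.12; edgeR, adjusted p = 0.054). Ifit3 measured 4.76, 3.14, 3.13 and 3.81 CPM in trained and 4.21, 6.15, 2.93, 3.56 and 7.57 CPM in naive APP/Tau mice. Its trained controls measured 2.47, 5.24, 2.80, 2.91 and 2.57 CPM, and its naive controls 1.94, 2.48, 2.29, 2.48 and 2.44 CPM. Apart from 1 trained control at 5.24 CPM, every control lay below the lowest APP/Tau library (0.64 ± 0.18; edgeR, adjusted p = 0.0711). Ifit3b, which shares sequence with it, measured 3.14, 2.68, 2.47 and 2.74 CPM in trained and 2.55, 3.23, 1.94, 2.39 and 4.46 CPM in naive APP/Tau mice. Its controls measured 1.94, 3.21, 1.57, 1.89 and 1.16 CPM when trained and 1.96, 1.75, 1.98, 1.80 and 1.92 CPM when naive, and the same trained control stood out (0.56 ± 0.17; edgeR, adjusted p = 0.0871).

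Ifi35 measured 2.71, 1.55, 1.37 and 2.30 CPM in trained and 1.49, 2.18, 2.08, 1.22 and 1.98 CPM in naive APP/Tau BLA. In trained controls it measured 1.55, 1.23, 0.992, 1.43 and 1.07 CPM, and in naive controls 1.24, 1.71, 1.59, 1.03 and 0.876 CPM. The difference was 0.57 ± 0.17 with overlapping groups (adjusted p = 0.0909, edgeR). Lgals3bp measured 37.8, 13.6, 20.2 and 14.1 CPM in trained and 17.98, 16.4, 14.9, 17.1 and 32.3 CPM in naive APP/Tau mice. Its trained controls measured 12.0, 19.7, 13.9, 12.3 and 15.9 CPM, and its naive controls 10.6, 14.3, 14.2, 10.8 and 13.2 CPM. A single library in each APP/Tau group lay far above the rest, replicate 1 of the trained and replicate 5 of the naive mice (0.59 ± 0.18; edgeR, adjusted p = 0.0959).

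Stat2, Irf9, Irf7 and Isg15 showed no called difference in the BLA. Stat2 measured 18.6, 21.1, 19.7 and 22.4 CPM in trained and 17.1, 19.4, 17.1, 20.1 and 19.99 CPM in naive APP/Tau mice. Its trained controls measured 22.6, 19.8, 21.6, 21.4 and 19.2 CPM, and its naive controls 21.0, 23.7, 21.9, 20.6 and 22.9 CPM. This was the 1 estimate below 0 (-0.13 ± 0.06; edgeR, adjusted p = 0.193). Irf9 measured 7.18, 5.59, 7.92 and 6.79 CPM in trained and 5.32, 5.56, 5.85, 4.90 and 8.45 CPM in naive APP/Tau mice, against 5.43, 6.78, 4.55, 4.70 and 4.79 CPM in trained and 3.41, 6.41, 6.28, 5.62 and 5.54 CPM in naive controls. Irf7 measured 1.61, 1.80, 1.08 and 0.977 CPM in trained and 0.971, 1.84, 1.16, 1.29 and 2.56 CPM in naive APP/Tau mice, against 0.791, 2.75, 0.992, 1.21 and 0.465 CPM in trained and 0.791, 1.18, 0.927, 0.898 and 1.57 CPM in naive controls. Both overlapped widely, with log2 fold changes of 0.26 ± 0.13 for Irf9 and 0.34 ± 0.27 for Irf7. Isg15 measured 1.53, 1.04, 0.928 and 1.17 CPM in trained and 0.798, 1.05, 0.743, 0.775 and 2.09 CPM in naive APP/Tau mice. Its trained controls measured 0.808, 2.91, 0.889, 1.08 and 0.450 CPM, and its naive controls 0.828, 1.14, 1.14, 0.981 and 0.895 CPM. The highest Isg15 value of the BLA was thus in a control, and the log2 fold change was 0.03 ± 0.28 (adjusted p = 0.970, edgeR). It turned to -0.16 without replicate 5 of the naive APP/Tau group. It also turned below 0 without replicate 1 of the trained APP/Tau group or replicate 1, 3 or 5 of the trained controls.

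The library with that highest Isg15 value, replicate 2 of the trained controls, was the highest control for 21 of the 39 genes and the highest of the 19 BLA libraries for 5. It also held 4609 CPM of striatal and central amygdala markers, the highest among controls, and 4080 CPM of oligodendrocyte markers, where the other controls stood between 1973 and 2670 CPM. Without it, 7 of the 39 rose in APP/Tau BLA, and without replicate 2 of the trained APP/Tau group 6 rose. The shares of all genes called in these fits are not reported here, so the counts show dependence on single libraries only. Taken by training state, 0 of 39 passed in trained BLA (10 at unadjusted p below 0.05; all genes: 0.0432% called) and 0 in naive BLA (6 at unadjusted p below 0.05; all genes: 0.0388% called), while DESeq2 called 1 in each and limma-voom 0. The interaction called 0 of 39 by edgeR, DESeq2 and limma-voom (edgeR: 2 at unadjusted p below 0.05, Ifi27 and Ifit3; all genes: 0%).

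Whether the tissues differ was tested in a fit of all 39 libraries, taken as independent. If both tissues came from the same mice, the standard errors and intervals below do not account for it. The BLA effect was smaller than the hippocampal one for 37 of the 39 estimates, the exceptions being Oas2 and Slfn2, and the median difference, BLA minus hippocampus, was -0.36 on the log2 scale, against -0.01 over all genes. Taken gene by gene, 0 of 39 passed (edgeR, with 12 at unadjusted p below 0.05; 0 by DESeq2 and limma-voom; all genes: 0.0262% called). The smallest adjusted p was 0.356, for Gbp3, whose effect was 0.14 ± 0.20 in the BLA and 1.06 ± 0.20 in the hippocampus (difference -0.93 ± 0.30). Isg15 differed by -1.01 ± 0.38, with a 95% interval from -1.77 to -0.25, and Ifi44 by -1.11 ± 0.41, from -1.93 to -0.28. For Ifit3 the interval ran from -0.97 to 0.0082 and for Xaf1 from -0.54 to 0.44. The input was 10 ng of RNA for a BLA library and 50 ng for a hippocampal one, and BLA libraries had fewer counts, which cannot be told apart from tissue here.

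Upstream of the 39, transcripts of the interferons themselves were next to undetected. None of 21 ligand genes passed the filter in either tissue. In the hippocampus 5 of the 21 had any count, 66 counts in all over 20 libraries, of which Ifng had 25, and Ifnb1, the interferon beta gene, had 0. In the BLA 8 of 21 had any count, 51 in all over 19 libraries, with 20 for Ifng and 8 for Ifnb1, all 8 from 1 control library. At this depth a difference between genotypes was not detectable for any ligand.

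Of 10 receptor and kinase genes, 4 rose in APP/Tau hippocampus, among them Il10rb, shared by the interferon lambda receptor (0.57 ± 0.14), Ifngr1 (0.55 ± 0.14) and Ifnar2 (0.35 ± 0.09). The partner chains Ifnar1 (0.12 ± 0.05; edgeR, adjusted p = 0.0909) and Ifngr2 (-0.08 ± 0.06) and the kinases Jak1 (-0.05 ± 0.04) and Tyk2 (-0.04 ± 0.07) did not pass, nor did Irf3 (0.06 ± 0.11), which starts interferon transcription. In the BLA 1 of 10 rose, Ifngr1 (0.38 ± 0.09; edgeR, adjusted p = 0.0441). Of 17 genes listed as nucleic acid sensors or as inducers upstream of interferon, 15 were tested in each tissue, and 8 rose in the hippocampus. The 5 with the smallest p were Unc93b1, which carries Toll-like receptors to endosomes (1.38 ± 0.23), Tlr7 (1.50 ± 0.29) and Tlr9 (0.98 ± 0.21), which sense RNA and DNA there, the DNA sensor Aim2 (0.59 ± 0.13) and the kinase Ikbke (1.11 ± 0.25). In the BLA 2 of 15 rose, Unc93b1 (0.88 ± 0.17) and Tlr7 (0.66 ± 0.16). Of 12 brakes on the pathway, Socs3 (1.86 ± 0.28) and the phosphatase gene Ptpn6 (1.70 ± 0.27) rose in the hippocampus and Ptpn6 (1.12 ± 0.22) in the BLA. Several of these genes, Unc93b1, Tlr7 and Ptpn6 among them, are expressed mainly by myeloid cells in the brain. Values of microglial markers are given above, and their part in the changes of these genes was not tested.

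Of 66 other interferon-induced genes tested in the hippocampus, 35 rose and 1 fell, with a median log2 fold change of 0.69. The chemokine gene Cxcl10 averaged 3.25 ± 1.62 CPM in trained and 2.34 ± 1.89 CPM in naive APP/Tau mice (SD, n = 4 and 5), and 0.375 ± 0.238 CPM in trained and 0.324 ± 0.0886 CPM in naive controls (SD, n = 6 and 5). That is a log2 fold change of 2.98 ± 0.43 (adjusted p = 0.000454, edgeR), above any of the 39. The helicase gene Ddx60 (1.35 ± 0.20), the RNA-activated kinase Eif2ak2 (0.35 ± 0.06), Slfn9 (1.88 ± 0.30) and the GTPase Irgm1 (0.94 ± 0.16) came next in order of p. In the BLA the 53 genes tested had a median of 0.17, and 0 passed (edgeR; 22 at unadjusted p below 0.05).

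Markers of other cells that could carry the response were counted in the same fit. In the hippocampus 4 of 8 astrocyte, 4 of 6 oligodendrocyte and 3 of 8 endothelial markers rose, and 0 of 6 neuronal and 0 of 8 choroid plexus markers did (edgeR; 1 and 0 at unadjusted p below 0.05). Of monocyte and border macrophage markers 3 of 8 rose (summed level 4.46 to 10.5 CPM in APP/Tau and 2.71 to 7.65 CPM in control libraries). Among 9 T and NK cell markers tested 1 rose, Trbc1, which had only 97 counts in all, from 11 of 20 libraries. The 9 genes summed to between 1.57 and 4.53 CPM in APP/Tau and between 0.704 and 3.13 CPM in control libraries. Trbc2 had the most counts of the 9, 2848. Astrocyte markers summed to between 3298 and 4603 CPM in APP/Tau and between 3267 and 3725 CPM in control libraries, and oligodendrocyte markers to between 4962 and 9620 CPM and between 3962 and 6384 CPM. Of 6 markers of hippocampal regions 3 fell, Prox1 (-0.48 ± 0.12), Trpc6 (-0.73 ± 0.19) and Wfs1 (-0.38 ± 0.12), and their sum stood between 218 and 518 CPM in APP/Tau and between 464 and 642 CPM in control libraries. Of the 6 BLA markers, Etv1 (-0.37 ± 0.08) and Lmo3 (-0.25 ± 0.06) fell in the hippocampus. The part of all these markers in the results of the 39 was not tested.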

How the data were processed

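Poly(A) RNA of 39 libraries was measured, and the authors deposited whole-number counts per gene and library, without normalization, as 1 table for each tissue. Per the submitters' processing notes, Trimmomatic 0.39 trimmed the reads and mm39 was the build. Not given in the sources used here are the aligner, the counter, the annotation, the strand setting and how mates of a pair were counted; every library total exceeds the 40 M reads planned per the labels' protocols. Without strand, a gene and an antisense partner cannot be told apart. From the counts, edgeR 4.0.16 (R 4.3.3) fitted 4 group means for each tissue, with TMM factors, filterByExpr (minimum count 10, minimum total 15) and the 2-sided quasi-likelihood F test. P-values were adjusted by Benjamini-Hochberg over all genes tested, with a threshold of 0.05. A fit of 8 group means over both tissues tested the tissue difference. A standard error is |log2 fold change| divided by the root of F, and 95% intervals take the t quantile at the total (prior and residual) degrees of freedom of each gene in the edgeR fit. CPM values use TMM-scaled libraries and are not per length, so levels of different genes are not compared. The scripts were tested on simulated data.

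The 39 genes and all lists were chosen with earlier results of these data known. Values of each library (for the 6 trained control hippocampi the range and the median) are given for the 6 genes with the smallest p in each tissue and for Stat2, Irf9, Irf7, Isg15 and Ifit3, and up to 5 called genes are named from each other list. Results of some genes of the other lists are not reported here. Genes named outside that rule were chosen after their values were seen. Alternatives were DESeq2 1.42.0, limma-voom (limma 3.58.1), RLE factors, other low-count filters, the 2 compared groups alone, a replicate block, a striatal marker covariate in the BLA, and leaving out libraries rich in 18S rRNA or each library in turn. Promoter windows come from RefSeq (GRCm38.p6), and shared 50-base windows from GENCODE M21 transcripts of that build. Their coordinates were not mixed with mm39.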

Additional observations from a re-analysis of the deposited data

Results flagged for a closer look

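Of 80 sets of 4 to 6 libraries checked for a sample far from its group, 8 held one; chance gives about 5%. All are single high libraries, and 3 libraries supply them. Replicate 5 of the naive APP/Tau hippocampus stood apart for Irf8 (23.7 CPM, next highest 10.3), Parp14 (10.8, next highest 5.41) and Lgals3bp (61.0, next highest 23.3). Replicate 5 of the naive APP/Tau BLA, which carries the same library number 18, stood apart for Lgals3bp (32.3 CPM, next highest 17.98), Irf9 (8.45, next highest 5.85) and Isg15 (2.09, next highest 1.05). Every library number found in both tissues carries the same genotype and training in both. The labels do not say whether such a number marks 1 mouse. Replicate 2 of the trained control BLA stood apart for Ifit3 (5.24 CPM, next highest 2.91) and Isg15 (2.91, next highest 1.08).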

How the results depend on the processing

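Other settings left the hippocampal averaged count between 27 (limma-voom) and 32 (DESeq2), except 18 without the libraries rich in 18S rRNA; leaving out 1 library gave 20 to 33. Of its 29 genes, 18 passed in every fit run. Gbp7 and Isg15 passed in each fit that left out 1 library but not without the libraries rich in 18S rRNA. The hippocampal count in naive mice was 1 and became 10 with DESeq2, 2 with a mean of at least 1 CPM, and 0 with limma-voom, with only the 2 groups compared, with the replicate block and without libraries rich in 18S rRNA (0 to 5 leaving out 1 library). In trained mice it was 13 and became 22 with DESeq2, 2 with limma-voom, 20 with the replicate block and 0 without those libraries (0 to 25). In the BLA the averaged count was 1 and became 6 with DESeq2, 2 with a mean of at least 1 CPM, and 0 with limma-voom, the replicate block, the striatal covariate and without the library rich in 18S rRNA (0 to 7). DESeq2 called 1 in naive and 1 in trained BLA, where leaving out 1 library gave 0 and 0 to 3. Training, interaction and tissue-difference counts were 0 in every fit run. The cause of these shifts was not tested, and the shares of all genes called in these fits are not given here.

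The replicate block used the numbers in the titles, which count samples within a group and are not said to pair them. Deviations of same-numbered libraries of different groups correlated at 0.119 on average in the hippocampus (lowest -0.317), against -0.0207 for different numbers. In the BLA the averages were -0.0481 for the same number and 0.0148 for different numbers. With the block the hippocampal averaged count was again 29, but Irf1 and Zbp1 no longer passed and Irf7 and Ifi27l2a did; BLA Irf8 did not pass. For the 19 library numbers found in both tissues, deviations correlated at 0.252 on average (lowest -0.161), and the own number was the best match for 10. The tissue fit takes libraries as independent; blocking by library number across tissues called 0 of 39 for the tissue difference.

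Signs turned for small BLA estimates on the log2 scale. With the striatal covariate Cmpk2 was -0.039, Gbp3 -0.043, Ifih1 -0.0024, Isg15 -0.17 and Samhd1 -0.021, and without the library rich in 18S rRNA Cmpk2 was -0.017. Leaving out 1 library gave -0.017 to 0.047 for Cmpk2, -0.019 to 0.40 for Gbp2, -0.023 to 0.048 for Ifit2, -0.015 to 0.14 for Irf1 and -0.16 to 0.34 for Isg15, and -0.011 to 0.056 for hippocampal Stat2. BLA depth is the lower, and Zbp1 had 131 and Oas1a 275 counts over its 19 libraries, which limits what can be said of both.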
